A study of Mus musculus with 2 samples.

Results

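Liver sinusoidal endothelial cells were examined in a single-cell RNA data set of non-parenchymal liver cells, which leave out the hepatocytes. Both groups were mice injected intraperitoneally with CCl4 (carbon tetrachloride, a hepatotoxin used to bring on liver fibrosis) for 8 weeks, and no uninjected animals are among the samples. One library came from Mfap2+/+ (WT) and 1 from Mfap2-/- (KO) mice, and the labels do not give the number, strain, sex or age of the animals or how the allele was made. Mfap2 encodes a glycoprotein of extracellular microfibrils. RNA molecules were counted as UMIs (unique molecular identifiers) with Chromium 3′ v3 chemistry.

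The cells were selected on their own UMI counts. Barcodes were kept with 200 or more genes detected and mitochondrial UMIs of no more than 20%. A kept barcode was a member if it held at least 5 UMIs of Stab2, Clec4g, Gpr182 and Oit3 together and at least 3 of Ptprb, Kdr, Cdh5 and Egfl7. It also had to hold at most 2 UMIs of Vwf, no UMI of Cd3d, Cd3e or Cd3g, at most 2 of Cd79a, Cd79b and Ms4a1, at most 10 of C1qa, C1qb and C1qc, and at most 5 of Lrat, Reln and Dcn. This rule found 776 of 11370 kept barcodes in the Mfap2+/+ library and 1100 of 12723 in the Mfap2-/- library, 1876 of 24093 in all (7.79%). The libraries shared 40 barcode sequences, and none was a member in both.

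With 1 library per genotype there is no test between genotypes, and a difference of genotype cannot be told apart from one of animal, dissociation or library. No p-value is given. Levels are UMIs summed over the members of a library and scaled to 1e6 (CPM), and ratios are log2 of Mfap2-/- over Mfap2+/+ with 1 count added to each sum. Pairs of values give the Mfap2+/+ library first. A log2 ratio often follows its pair of CPM values in parentheses, with its 95% interval where one is given. All intervals cover counting error only. Mfap2 itself had 1 UMI in Mfap2+/+ and 0 in Mfap2-/- members, too few to check the labels in these cells, and it was at 3.28 and 0.036 CPM in the other barcodes.

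Sinusoidal endothelial cells line the liver's capillaries without a continuous basement membrane, through open pores called fenestrae. Their scavenger receptors clear denatured collagen, hyaluronan, immune complexes and lipoproteins from blood. They also release angiocrine factors, paracrine signals such as Wnt2, Rspo3, Hgf and Bmp2 that set hepatocyte zonation, growth and iron balance. In fibrosis the cells are known to lose fenestrae and lay down a basement membrane, a process called capillarisation.

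Members made up 6.82% of kept barcodes (6.37 to 7.30) in the Mfap2+/+ library and 8.65% (8.16 to 9.15) in the Mfap2-/- library, a log2 ratio of the shares of 0.34 (0.21 to 0.48). Knockout members were deeper, with a median of 6288 UMIs and 2636.5 genes per cell against 4560 UMIs and 2242.5 genes. A rule that asks for a fixed number of UMIs admits more cells in a deeper library. When every barcode was first thinned to 2000 UMIs, the ratio of the shares was 0.31 (0.15 to 0.46). Requiring no UMI of the B cell, macrophage and stellate genes of the rule left 75 and 68 members and turned the ratio to -0.30 (-0.80 to 0.19). Below, this selection is called members with no UMI of other-lineage genes, though it sets no limit on hepatocyte, neutrophil or erythroid genes. The share is therefore given as a value of these libraries, with no direction read from it.

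At the lower edge of the rule, 61 and 48 members had exactly 5 UMIs of the leading 4 genes, with a median depth of 1758 and 1854 UMIs. Just outside it, 46 and 41 barcodes met every other condition with 4 UMIs, at 1695.5 and 1656 UMIs. Dnase1l3, which no condition used, stood at 466 CPM in both libraries at 5 UMIs and at 337 and 550.4 CPM at 4 UMIs. The edge of the rule thus cuts through shallow cells that carry sinusoidal genes on both sides.

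The label was checked on sinusoidal genes that the rule did not use. Stab1, a scavenger receptor, was at 389 CPM in Mfap2+/+ and 362 CPM in Mfap2-/- members, against 58.5 and 54.1 CPM in all other kept barcodes. Mrc1, the mannose receptor, was at 753 and 924 CPM in members and 153 and 161 CPM elsewhere. Fcgr2b, a receptor for immune complexes, was at 923 and 753 CPM against 90.7 and 98.2 CPM. Lyve1, the hyaluronan receptor, was at 371 and 347 CPM against 21.3 and 25.6 CPM. Gata4, a transcription factor of sinusoidal identity, was at 245 and 306 CPM against 23.2 and 31.7 CPM. All of these genes, with Dnase1l3, Ehd3 and Flt4, were higher in members than in the other barcodes of both libraries, and Fcn3 was not in the tables by that symbol. Vascular endothelial cells, with at least 3 UMIs of Vwf, came nearer to members for Stab1 (284.5 and 178.7 CPM) and Ehd3 (420 and 285 CPM, against 517 and 603 CPM). They were further from members for Lyve1 (34.0 and 9.08 CPM), Dnase1l3 (99.8 and 63.6 CPM) and Fcgr2b (151 and 170 CPM). The genes the rule used are a description only: Stab2 was at 2247 and 2630.1 CPM, Clec4g at 762 and 726 CPM and Vwf, which the rule limits, at 60.1 and 16 CPM.

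At equal depth, 2000 UMIs per cell, 621 Mfap2+/+ and 980 Mfap2-/- members were deep enough to be thinned, and 155 and 120 were left out. A Stab1 UMI was then found in 50.7% and 48.2% of members, against 3.1% and 1.98% of B cells, which lack the receptor and had a median of 3854.5 and 5141.5 UMIs before thinning. For Lyve1 the shares were 43.6% and 39.5%, with 0.739% and 1.17% in B cells. Before thinning, Lyve1 UMIs were in 56.3% and 61.4% of members. Sinusoidal genes were thus found in members far more often than in B cells.

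RNA of other cells was present at unequal levels. Summed CPM of the hepatocyte markers was 165 and 282 in Mfap2+/+ and Mfap2-/- members (520.1 and 900.5 in all other barcodes), of macrophage markers 947 and 623 (4591 and 3355), of neutrophil markers 2212 and 1542 (8659 and 4796) and of erythroid markers 1080 and 221 (1922 and 419.8). Every one of these sums was lower in members than in the other barcodes of the same library. The neutrophil sum lay partly in few cells, with the 5 richest members holding 60.7% and 47% of the UMIs of S100a8. Low counts were widespread too, with an S100a8 UMI in 73.2% and 72.5% of members. At 2000 UMIs these shares were 48.0% and 39.9%, against 49.8% and 38.2% of B cells. Lymphatic endothelial markers other than Prox1 were at or near 0: Pdpn had 20 and 4 UMIs, Ccl21a 0 and 3, and Mmrn1 2 and 5. Prox1, the transcription factor of lymphatic identity, which hepatocytes also express, was at 23.5 and 61.2 CPM (1.37, 1.06 to 1.71), with a UMI in 3.54% and 10% of members at 2000 UMIs, against 1.18% and 0.450% of B cells, and in 8.76% and 19.2% unthinned. Xist had no UMI in members of either library, whereas the Y-linked Ddx3y was at 129 and 139 CPM.

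Across all genes, 10936 had at least 50 UMIs over both libraries' members. Of these, 4961 were higher in the Mfap2-/- library and 5975 lower, and their median log2 ratio was -0.06. At least 2-fold higher in the Mfap2-/- library were 241 genes (2.2%), and 202 (1.85%) were at least 2-fold lower. With median of ratios scaling, which adds 0.06 to every ratio, these counts were 286 and 150. Thinning members to 2000 UMIs gave 140 and 167. A minimum of 20 UMIs gave 413 and 380, none gave 1298 and 1809, and the 75 and 68 members with no UMI of other-lineage genes gave 83 and 62. The gene lists described below are read against these shares. Ratios also followed gene length in the genome: with the genes divided into 4 equal span classes, the median was -0.40 in the class with the shortest spans (under 11 kb), -0.18 and 0.004 in the middle classes and 0.24 in the longest (over 60.4 kb). The same order held in B cells, from -0.20 to 0.29. Of 93 ribosomal protein genes 88 were lower, and their UMIs made up 11.4% and 7.36% of the members' total. Malat1, a nuclear RNA, made up 1.31% and 1.71%. The part of gene span and ribosomal share in any list below was not tested, but a list's median is also given less the medians of its genes' span classes where the list stands apart.

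**Figure D1:**
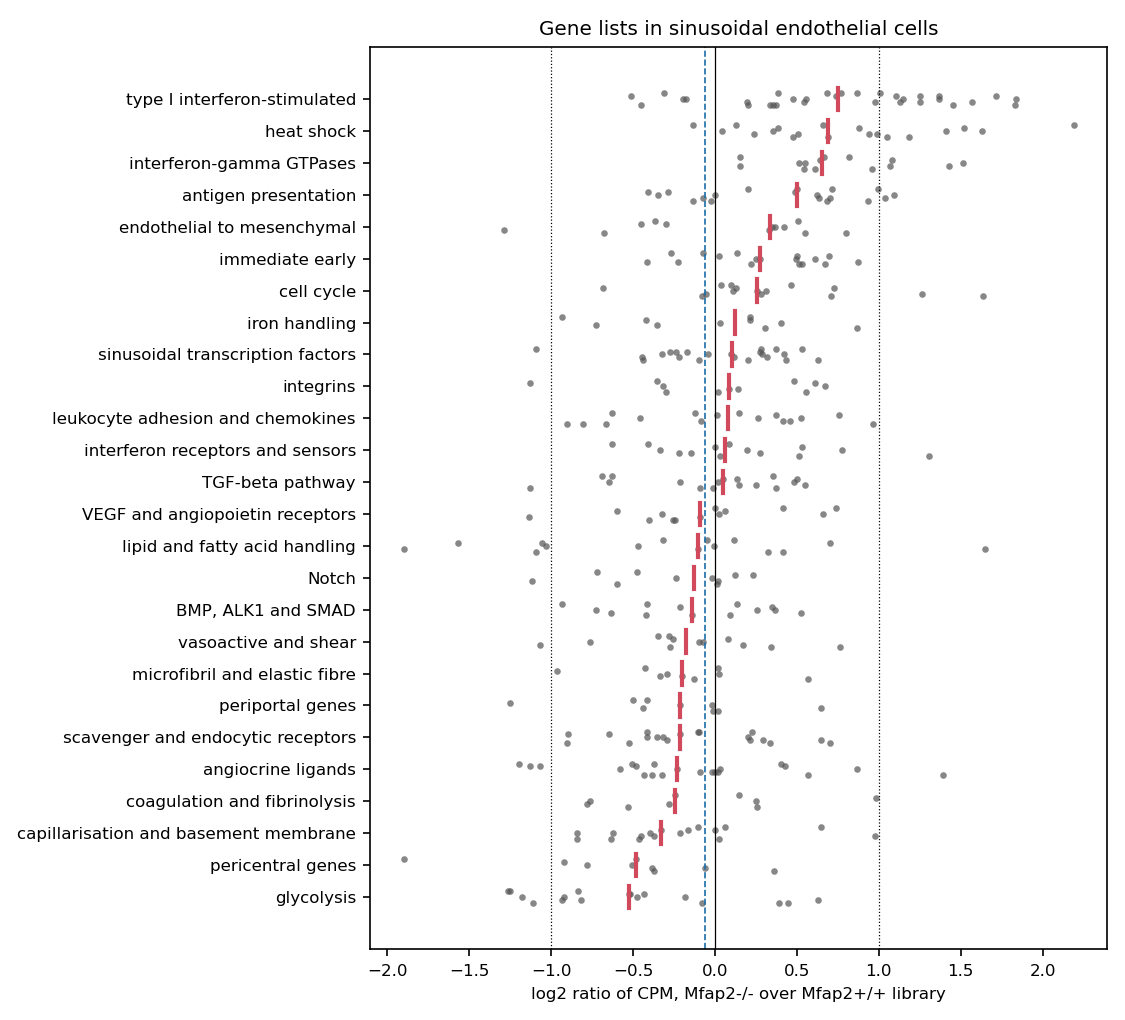
Log2 ratio of CPM (x axis), Mfap2-/- over Mfap2+/+ library, for each gene (grey points) of each list (y axis) in sinusoidal endothelial cells, with the list's median as a red bar, the median of all genes (-0.06) as a dashed blue line and 2-fold limits as dotted lines. The type I interferon, heat shock and interferon-gamma GTPase lists have the highest medians and glycolysis the lowest.

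Interferon-stimulated genes were higher in the sinusoidal endothelial cells of the Mfap2-/- library. Of 35 listed type I interferon-stimulated genes 32 passed the UMI minimum. Among these 27 were higher and 5 lower, 13 were at least 2-fold higher and none at least 2-fold lower, and the median log2 ratio was 0.75 (0.96 less the span class medians). These genes encode proteins that bind viral RNA, halt its translation or degrade it, and many are switched on through a DNA motif called the interferon-stimulated response element.

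Among the effectors, Ifit2, which binds viral RNA, was at 133 CPM in Mfap2+/+ and 475 CPM in Mfap2-/- members, a log2 ratio of 1.84 (1.71 to 1.97). The Ifit2 gene lies at chr19:34550694-34576419, on the plus strand of GRCm38. Its neighbour Ifit1 was at 66.9 and 239 CPM, a ratio of 1.83 (1.65 to 2.03). Rsad2, which makes the antiviral enzyme viperin, was at 155 and 510.2 CPM, a ratio of 1.72 (1.60 to 1.84). At the other end, Irf7, the factor that amplifies the interferon response, was lower, at 79.1 and 55.6 CPM (-0.51, -0.72 to -0.29), as was Bst2, which tethers budding virus, at 469.7 and 344 CPM (-0.45). The effector genes with the widest ratios and these genes of the same list lay on opposite sides of 0.

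Several sensors of viral nucleic acid were higher: Ifih1 was at 225 and 484 CPM (1.10), Ddx58 at 89.6 and 153 CPM (0.77), the RNA-activated kinase gene Eif2ak2 at 106 and 275 CPM (1.37) and the DNA sensor gene Cgas at 34.8 and 86.7 CPM (1.31). The transcription factor genes Stat2 and Irf9 differed less, with ratios of 0.38 and 0.20, the latter with an interval that includes 0 (-0.01 to 0.42). Isg15, a ubiquitin-like modifier, was at 177 and 260.2 CPM (0.56), while Usp18, which removes it and damps the receptor, was at 34.6 and 82.8 CPM (1.25).

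The list of 14 interferon receptors, kinases, sensors and feedback genes, which holds Cgas, had a median of 0.06, with Cgas the 1 gene at least 2-fold higher. Ifnar1 was at 56.8 and 45 CPM (-0.34, -0.58 to -0.09) and Ifnar2, the other chain of the type I interferon receptor, at 221 and 235 CPM (0.09, -0.03 to 0.21). Jak1, a kinase of interferon signalling, was at 2069.8 and 3536 CPM (0.77, 0.74 to 0.81), but its ratio was 0.13 in the 75 and 68 members with no UMI of other-lineage genes. Tmem173, which encodes STING, the partner of the DNA sensor, was lower, at 46.6 and 30.1 CPM (-0.63).

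Promoters of the genes with wide ratios are shown because the response element can be read in them directly. The core was searched as GAAANNGAAA on both strands, in RefSeq windows (GRCm38.p6) from 250 bases before to 50 after a gene's start. It was in 3.44% of all 32851 windows, and 3.99% of all 27025 genes had a window with it. By gene, it was in windows of 13 of the 25 interferon-list genes that the table holds. The counts were 9 of 11 for interferon-gamma GTPase genes, 0 of 18 for glycolysis and 0 of 14 for scavenger genes. Rsad2 has 1 match, Ifit1 2, Ifit3b 2 and Isg15 3 that overlap one another, while the 2 windows of Ifit2 have none. A match is a description of the letters and not a measured binding site. Sequences run 5′ to 3′ on the gene's own strand, with matches in capitals, which read TTTCNNTTTC where the core lies on the other strand. The windows are chr19:34640639-34640938 (plus strand) for Ifit1, chr19:34607707-34608006 (plus) for Ifit3b, chr12:26456403-26456702 (minus) for Rsad2 and chr4:156200769-156201068 (minus) for Isg15.
Ifit1: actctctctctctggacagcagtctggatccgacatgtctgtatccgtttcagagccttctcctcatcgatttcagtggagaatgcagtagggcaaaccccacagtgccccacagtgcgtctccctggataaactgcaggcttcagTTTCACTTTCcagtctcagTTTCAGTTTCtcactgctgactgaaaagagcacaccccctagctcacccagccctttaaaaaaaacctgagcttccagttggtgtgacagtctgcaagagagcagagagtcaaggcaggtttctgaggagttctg
Ifit3b: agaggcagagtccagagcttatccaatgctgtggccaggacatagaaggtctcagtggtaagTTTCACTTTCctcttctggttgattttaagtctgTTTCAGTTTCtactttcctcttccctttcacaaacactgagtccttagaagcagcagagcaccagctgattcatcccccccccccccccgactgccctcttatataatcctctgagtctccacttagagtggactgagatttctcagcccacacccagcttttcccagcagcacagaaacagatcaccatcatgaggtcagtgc
Rsad2: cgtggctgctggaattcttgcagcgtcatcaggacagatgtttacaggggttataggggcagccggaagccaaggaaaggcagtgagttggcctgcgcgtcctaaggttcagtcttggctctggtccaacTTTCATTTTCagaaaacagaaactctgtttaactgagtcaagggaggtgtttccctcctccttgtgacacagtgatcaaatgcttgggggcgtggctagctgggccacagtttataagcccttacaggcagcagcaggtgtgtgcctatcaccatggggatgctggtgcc
Isg15: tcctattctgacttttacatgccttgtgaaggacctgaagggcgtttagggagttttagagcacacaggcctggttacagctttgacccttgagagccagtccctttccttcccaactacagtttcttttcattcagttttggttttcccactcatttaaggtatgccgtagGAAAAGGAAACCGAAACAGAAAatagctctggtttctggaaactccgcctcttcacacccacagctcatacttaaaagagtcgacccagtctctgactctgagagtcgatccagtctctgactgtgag

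In these windows the first match begins 104 bases before the start of Ifit1, 188 before that of Ifit3b, 120 before that of Rsad2 and 78 before that of Isg15. The log2 ratios of the 4 genes in members were 1.83, 1.57, 1.72 and 0.56, so the gene with the most matches had the smallest ratio of the 4. Ifit3b and its near-identical copy Ifit3 may share reads, so the split between them is uncertain.

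Interferon-gamma-inducible GTPases attack the vacuoles of intracellular microbes. All 14 genes of this list that passed, which includes the regulator Irf1, were above 0, 4 of them at least 2-fold, with a median of 0.65 (0.93 less the span class medians). Iigp1 was at 1394 and 2952 CPM (1.08, 1.04 to 1.13) and Irgm1 at 73.4 and 210.3 CPM (1.51, 1.34 to 1.70). The smallest ratios were those of Igtp (0.15, -0.24 to 0.57) and Ifi47 (0.15, -0.11 to 0.43), with intervals that include 0. Irf1, the transcription factor of this branch, was at 603 and 921 CPM (0.61).

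Sinusoidal cells also present antigen to T cells. Genes of MHC class II were higher, with H2-Ab1 at 152 and 247 CPM (0.70), H2-Aa at 201 and 284 CPM (0.50) and the invariant chain gene Cd74 at 364 and 564 CPM (0.63). These levels lay near those of T cells, at 169 and 205 CPM for H2-Ab1, 184 and 261 for H2-Aa and 382 and 492 for Cd74. All other kept barcodes held 858 and 1207 CPM of H2-Ab1. The 5 richest members held 21.0% and 13.3% of its UMIs. Class I genes were lower, with H2-K1 at 1006 and 792 CPM (-0.35) and B2m at 1265 and 1154 CPM (-0.13), although Nlrc5, the activator of class I genes, was at 49.6 and 102 CPM (1.04). Of the co-stimulatory genes, Cd86 was at 70.4 and 135 CPM (0.93) and the inhibitory ligand Cd274, which encodes PD-L1, at 125 and 194 CPM (0.63). T cells held 104 and 168 CPM of Cd86. The list of 19 genes had a median of 0.50, with 2 genes at least 2-fold higher and none lower. The median was 0.26 after the highest doublet scores were removed and 0.24 among members with no UMI of other-lineage genes. The class II genes are also B cell and macrophage genes; B cell markers summed to 63.9 and 72.0 CPM in members and macrophage markers were lower in the Mfap2-/- members, and their part in these values was not tested.

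Per cell, the interferon difference was spread over the population. At 2000 UMIs per cell, the median member carried 5 UMIs of the type I interferon list in the Mfap2+/+ library (25th to 75th percentile 3 to 8, highest 25) and 9 in the Mfap2-/- library (5 to 15, highest 76). Of the interferon-gamma GTPases, the median member carried 3 UMIs (1 to 6) and 7 UMIs (3 to 13). B cells at the same depth carried a median of 1 and 2 UMIs of the type I list. The distributions in members overlapped broadly, with the 95th percentile at 15 and 26 UMIs.

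**Figure D2:**
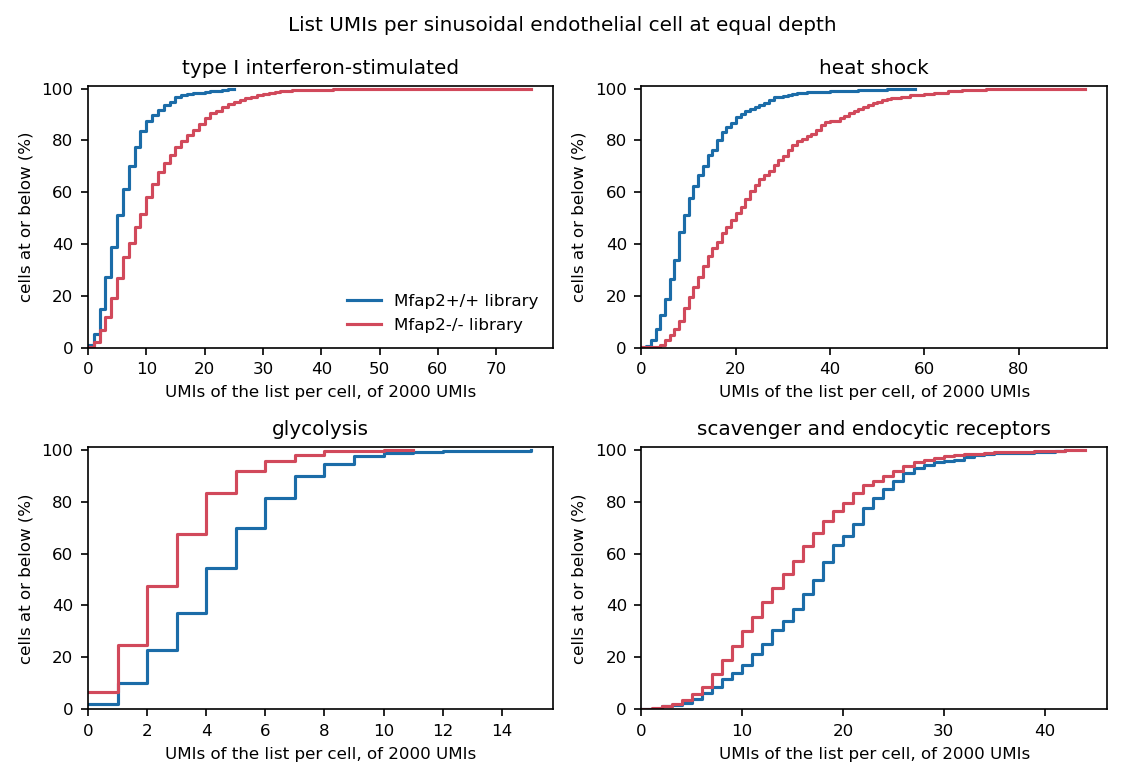
Cumulative share of sinusoidal endothelial cells (y axis, %) by UMIs of a gene list per cell after thinning to 2000 UMIs (x axis), for the Mfap2+/+ (blue, 621 cells) and Mfap2-/- (red, 980 cells) libraries. The red curve lies to the right for the interferon (median 5 and 9 UMIs) and heat shock lists (9 and 20), and to the left for glycolysis (4 and 3) and scavenger genes (18 and 14).

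The interferon difference was also measured outside sinusoidal endothelium. The same list had a median ratio of 0.85 in vascular endothelial cells (53 and 36 cells with at least 3 UMIs of Vwf), 0.60 in T cells, 0.48 in B cells and 0.43 in macrophages. In each class the median is over the list genes that passed the UMI minimum there. Single genes differed between classes without a test: the ratio of Rsad2 was 1.72 in sinusoidal cells, 1.82 in vascular endothelium, 0.57 in macrophages, 1.02 in T cells and 0.18 in B cells, and that of Ifit2 was 1.84, 2.13, 1.45, 1.57 and 1.38 in the same order. For MHC class II, H2-Ab1 had ratios of 0.70 in sinusoidal cells, 0.64 in vascular endothelium, 0.50 in macrophages, 0.27 in T cells and -0.08 in B cells.

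**Figure D3:**
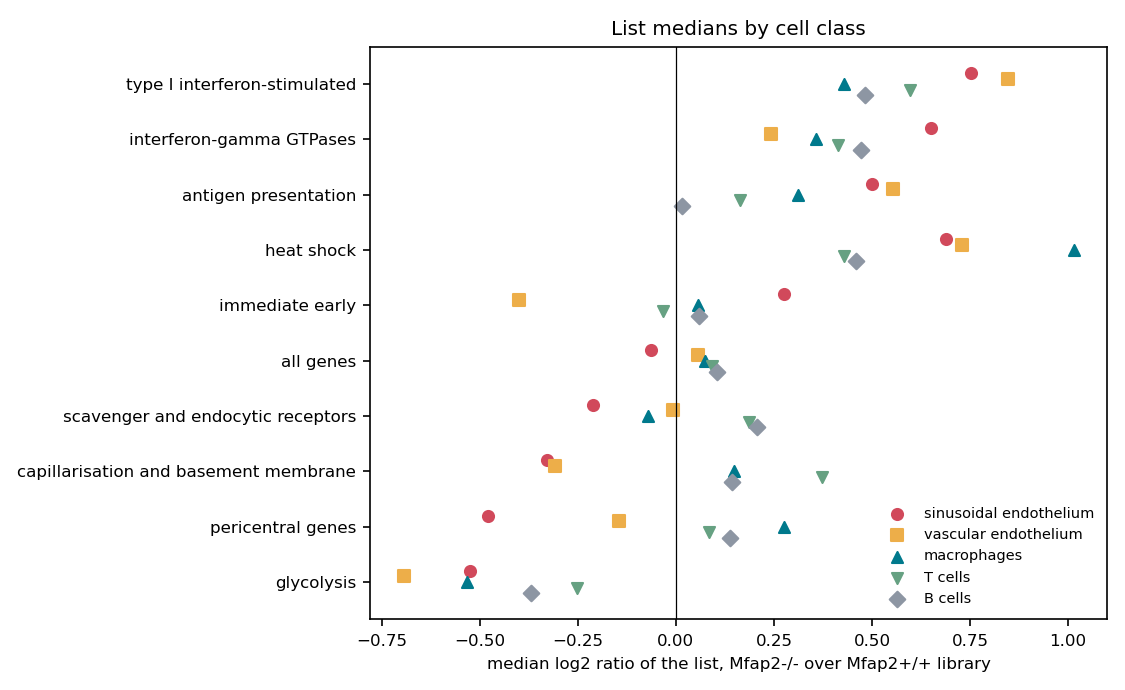
Median log2 ratio of gene lists (x axis), Mfap2-/- over Mfap2+/+ library, in sinusoidal endothelium (circles), vascular endothelium (squares), macrophages (upward triangles), T cells (downward triangles) and B cells (diamonds). Interferon and heat shock lists lie above 0 and glycolysis below 0 in all 5 classes. The pericentral list is at -0.48 in sinusoidal endothelium and between -0.15 and 0.28 in the others. Each median is over the list genes that passed the UMI minimum in that class, so the gene sets differ and the medians are not like for like. In B cells Wnt2 was at only 2.20 and 3.06 CPM and Thbd at 4.40 and 5.97 CPM. Fabp4, a gene of the pericentral list, was lower in every class.

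Heat shock genes, which encode chaperones that refold damaged proteins, were higher as well. Of 19 that passed, 18 were above 0 and 6 at least 2-fold higher, with a median of 0.69 (0.90 less the span class medians). Hsph1, a nucleotide exchange factor for Hsp70 at chr5:149614287-149636376 on the minus strand, was at 253 and 1157 CPM, a ratio of 2.19 (2.10 to 2.29), the highest among the genes named by the rule for wide ratios. Bag3, an Hsp70 co-chaperone, was at 119.7 and 371 CPM (1.63), and the near-identical Hsp70 genes Hspa1a and Hspa1b, whose reads the counting could split, at 668 and 1519 CPM and at 1185 and 3150.4 CPM. Hsf1, the factor that drives the response, did not differ beyond counting error, at 17.5 and 16.1 CPM (-0.13, -0.56 to 0.32).

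The Hsph1 promoter window (RefSeq, GRCm38.p6, chr5:149636287-149636586, minus strand) is shown for the 3-unit heat shock element, searched as GAANNTTCNNGAA or TTCNNGAANNTTC, in capitals. It begins 36 bases after the start. The element was in 0.603% of all windows and in windows of 0.662% of all genes. By gene, it was in windows of 4 of 16 heat shock genes (Hsph1, Chordc1, Hspd1 and Hspe1) and in 1 of 25 interferon genes.
Hsph1: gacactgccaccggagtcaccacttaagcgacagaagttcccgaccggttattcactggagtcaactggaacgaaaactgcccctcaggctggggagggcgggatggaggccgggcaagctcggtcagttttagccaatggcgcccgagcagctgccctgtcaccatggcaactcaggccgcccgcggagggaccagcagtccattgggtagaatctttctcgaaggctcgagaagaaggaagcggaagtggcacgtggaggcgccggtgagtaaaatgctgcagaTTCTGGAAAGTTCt

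Heat shock and immediate early genes are also known to be switched on when tissue is dissociated. The median member carried 9 UMIs of the heat shock list at 2000 UMIs in the Mfap2+/+ and 20 in the Mfap2-/- library, and B cells carried 22 and 36. The list's median ratio was 1.01 in macrophages and 0.46 in B cells, and it was above 0 in each of the 5 classes compared. Immediate early genes, activated within minutes of a stimulus, had a median ratio of 0.28 in members (0.65 less the span class medians), with 13 of 17 higher and none past 2-fold. Egr1 was at 1215 and 2228 CPM (0.87), Jun at 1693 and 2739 CPM (0.69) and Dusp1 at 1444 and 1372 CPM (-0.07). The list's median was -0.40 in vascular endothelium and between -0.03 and 0.06 in the immune classes. Mitochondrial UMIs made up 4.02% and 3.59% of the members' total. Whether handling of the 2 suspensions has a part in these values was not tested.

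Glycolytic genes were lower in the Mfap2-/- members. Of 17 genes 14 were below 0, 4 at least 2-fold lower and none 2-fold higher, with a median of -0.53 (-0.44 less the span class medians). Pgk1, phosphoglycerate kinase, was at 163 and 67.6 CPM (-1.27, -1.44 to -1.10), Tpi1 at 115 and 50.9 CPM (-1.18) and Gapdh at 579.9 and 303 CPM (-0.94). The 3 genes above 0 act at or on the entry steps, where others were lower, with Gpi1, glucose phosphate isomerase, at -0.43 (-0.58 to -0.28) and the phosphofructokinase gene Pfkl at -0.53 (-0.76 to -0.29). Of the 3, Hk1, hexokinase, was at 58.1 and 76.4 CPM (0.39), Pfkp at 37.8 and 51.7 CPM (0.45) and Pfkfb3, which makes the activator of phosphofructokinase, at 60.6 and 94.1 CPM (0.63, 0.42 to 0.85). The list was below 0 in the other classes too, from -0.69 in vascular endothelium to -0.25 in T cells. Reads of Gapdh, Aldoa and Eno1 can be shared with processed pseudogenes.

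Fatty acid handling held the lowest ratios of the genes named by the rule. Fabp4, a fatty acid chaperone at chr3:10204088-10208576 on the minus strand, was at 4586 CPM in Mfap2+/+ and 1229 CPM in Mfap2-/- members, a ratio of -1.90 (-1.94 to -1.86). A Fabp4 UMI was found in 96.3% and 77.6% of members at 2000 UMIs, against 15.5% and 5.94% of B cells, and in 96.9% and 91.5% of members before thinning. Its relative Fabp5 was at 1478 and 498 CPM (-1.57, -1.63 to -1.51). Gpihbp1, which anchors lipoprotein lipase to the capillary wall, was at 1421 and 665 CPM (-1.10, -1.15 to -1.04), and Lpl, the lipase, at 35.1 and 16.9 CPM (-1.05). Cd36, the fatty acid translocase, was at 886 and 712 CPM (-0.32), while Scarb1, the HDL receptor, was higher, at 95.4 and 156 CPM (0.70). Of 15 genes that passed, 5 were at least 2-fold lower, Lpl among them, and 1 (Lipg, endothelial lipase, 3.26 and 10.9 CPM) higher, and the median was -0.11. Pparg, a transcription factor known to drive Fabp4, was at 97.7 and 90.8 CPM (-0.11, -0.29 to 0.08).

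The Fabp4 difference was seen outside these cells with smaller size. Its ratio was -0.73 in vascular endothelium, -1.26 in T cells, -1.09 in B cells and -0.84 in macrophages. For Fabp5 the ratios were -0.11, -0.44, -0.73 and -0.18 in the same order. Whether Fabp4 UMIs in B cells come from free RNA of endothelial cells was not tested.

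**Figure D4:**
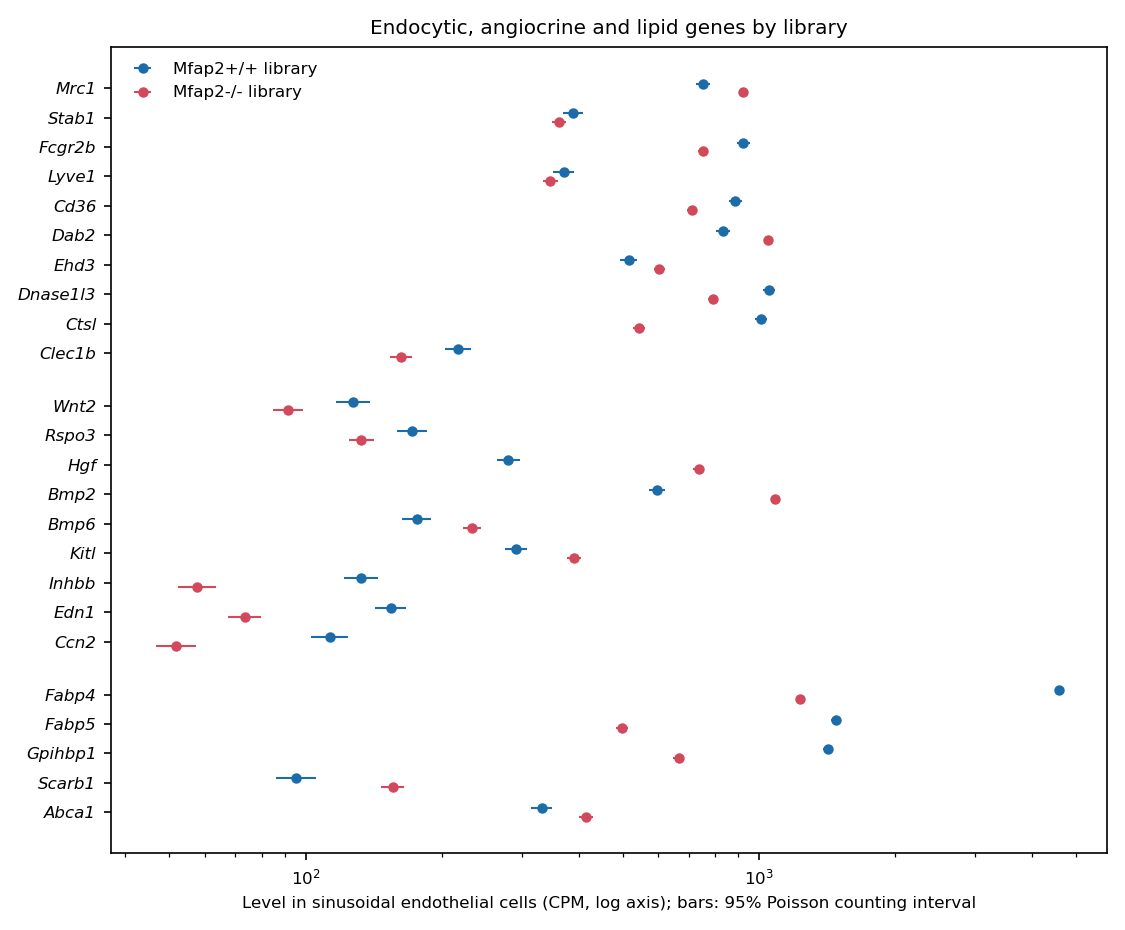
Level in sinusoidal endothelial cells (x axis, CPM on a log axis) of endocytic, angiocrine and lipid genes (y axis, top to bottom) in the Mfap2+/+ (blue) and Mfap2-/- (red) libraries, with 95% Poisson counting intervals as bars. Fabp4 and Fabp5 show the widest gaps to the left in the knockout, and Hgf and Bmp2 to the right.

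Scavenger and endocytic genes differed little and in both directions. Of 19 genes 7 were higher and 12 lower, none of them 2-fold, with a median of -0.21 (-0.11 less the span class medians). Among the receptors, Mrc1 was at 753 and 924 CPM (0.29, 0.23 to 0.36), Stab1 at 389 and 362 CPM (-0.10, -0.19 to -0.01), Fcgr2b at 923 and 753 CPM (-0.29, -0.35 to -0.23) and Clec1b at 217 and 163 CPM (-0.42). The adaptors and trafficking proteins Dab2 (833 and 1049 CPM, 0.33) and Ehd3 (517 and 603 CPM, 0.22) were slightly higher. The lysosomal proteases that degrade what is taken up were lower: Ctsl was at 1011 and 543 CPM (-0.90, -0.96 to -0.84) and Lgmn at 506 and 351 CPM (-0.53). Fcgrt, which rescues IgG and albumin from degradation, was at 325 and 208 CPM (-0.65). Among members with no UMI of other-lineage genes the ratio of Stab1 was 0.03, that of Lyve1 -1.28 and the list's median -0.40. Ctsl overlaps predicted genes on both strands.

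The transcription factors of sinusoidal identity had a median of 0.11, with 12 of 22 higher and 1 at least 2-fold lower. Gata4 had a ratio of 0.32 (0.21 to 0.43), or -0.07 among members with no UMI of other-lineage genes, Maf -0.22, Klf2, the shear-responsive factor, -0.27, Nr2f2 -0.24 and Meis2 0.28. Lyl1, the gene past 2-fold, was at only 12 and 5.63 CPM.

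Angiocrine ligands differed from gene to gene. Of 21 that passed, 8 were higher and 13 lower, 1 at least 2-fold higher and 3 at least 2-fold lower, around a median of -0.23 (0.18 among members with no UMI of other-lineage genes). Hgf, the hepatocyte growth factor at chr5:16553495-16620152, was at 279.9 CPM in Mfap2+/+ and 736 CPM in Mfap2-/- members (1.39, 1.30 to 1.49). A Hgf UMI was found in 31.7% and 43.4% of members at 2000 UMIs and in 2.22% and 3.24% of B cells, and in 49.9% and 66.1% of members unthinned. Its ratio was 1.34 in B cells and 1.01 in macrophages, and 0.44 among the 75 and 68 members with no UMI of other-lineage genes. The gene overlaps 2 predicted genes on its own strand. Bmp2 was at 597 and 1087 CPM (0.87, 0.80 to 0.93) and Bmp6 at 176 and 233 CPM (0.40). Both are endothelial signals that make hepatocytes release hepcidin, the iron hormone. In the same stricter selection the ratio of Bmp2 was -0.35, opposite in sign. Kitl, the stem cell factor, was at 291 and 391 CPM (0.43) and Csf1, the macrophage growth factor, at 89.4 and 133 CPM (0.57).

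The 3 ligands at least 2-fold lower in the Mfap2-/- library were Inhbb, a subunit of activin B (132 and 57.7 CPM, -1.20, -1.38 to -1.01), Ccn2, a matricellular protein known as connective tissue growth factor (113 and 51.8 CPM, -1.13, -1.33 to -0.93) and Edn1, the vasoconstrictor endothelin (154 and 73.4 CPM, -1.07, -1.24 to -0.90). Edn1 UMIs were concentrated, with the 5 richest cells holding 21.6% and 28.2% of them. Without the 5 richest cells of each library its ratio was -1.19, and among the 75 and 68 members with no UMI of other-lineage genes it was 0.83. Edn1 was higher in vascular endothelium, at 1287 and 663 CPM. Edn1 and Ccn2 each overlap a predicted gene on the opposite strand. Tgfb1 (202 and 189.6 CPM, -0.09, -0.22 to 0.04) and Ccn1 (113 and 114 CPM, 0.00, -0.16 to 0.17) had intervals that include 0.

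BMP receptors and targets lay on both sides of 0. Bmpr2, a type II receptor, was at 590.2 and 848 CPM (0.52), and the co-receptor Eng at 712 and 613 CPM (-0.22). The target genes Id1 (163 and 98.7 CPM, -0.72), Id2 (-0.41) and Id3 (692 and 446 CPM, -0.63) were lower, whereas the inhibitory Smad6 (206 and 246 CPM, 0.26) and Smad7 (0.13), which the same signal induces, were slightly higher. The list of 13 had a median of -0.14, or 0.02 less the span class medians, with none past 2-fold.

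Of the VEGF and angiopoietin axis, Kdr, used by the rule, was at 662 and 661 CPM. Flt1 (886 and 925 CPM, 0.06) and Tek, the angiopoietin receptor (258 and 263 CPM, 0.03), differed by little. The co-receptor Nrp1 was at 486 and 769 CPM (0.66) and Calcrl, the adrenomedullin receptor, at 504 and 839.9 CPM (0.74), while its partner Ramp2 was at 462 and 306 CPM (-0.60). The ratio of Nrp1 ran from 0.24 to 0.72 across the processing alternatives. Esm1, a proteoglycan that VEGF induces, was at 171 and 77.6 CPM (-1.14) and overlaps Gzmk on the opposite strand. In the selection with no UMI of other-lineage genes its ratio was -0.20. In the Notch list, Hes1, a target, was at 257 and 156 CPM (-0.72) and Nrarp, another target, at 46.6 and 21.5 CPM (-1.12), with the ligand Dll4 at 56.6 and 56 CPM (-0.02, -0.25 to 0.22). The median of the 10 Notch genes was -0.13.

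Capillarisation and basement membrane genes were mostly lower. Of 17 that passed, 5 were higher and 12 lower, none past 2-fold, with a median of -0.33. Ly6a was at 740.4 and 413 CPM (-0.84), Plvap, the diaphragm protein, at 117 and 75.6 CPM (-0.64), Sparc at 1094 and 709 CPM (-0.63) and Col4a1, a basement membrane collagen, at 435 and 337 CPM (-0.37). Across the processing alternatives the ratio of Ly6a ran from -0.89 to -0.17. In other classes the Ly6a ratio was -0.10 in vascular endothelium, -0.52 in B cells, -0.51 in T cells and -0.30 in macrophages. Cd34, a marker of capillarised cells, was at 40.3 and 37.7 CPM (-0.10, -0.38 to 0.19). Lama4, a laminin chain, was higher, at 218 and 340.5 CPM (0.64, 0.53 to 0.76). Vascular markers summed to 1191 and 693 CPM in members, but Ly6a and Cd34 belong to both lists, Ly6a makes up most of that sum and the selection limits Vwf, so the sum is no separate measure of vascular RNA.

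Adhesion molecules that hold leukocytes split. Vcam1, which captures lymphocytes and monocytes, was at 509.6 and 996 CPM (0.97, 0.90 to 1.04), and Icam1 at 432 and 560.3 CPM (0.37). Icam2 was lower, at 179.5 and 103 CPM (-0.81), as was the junction gene Esam, at 325 and 209.6 CPM (-0.63). Of the chemokines, the interferon-induced Cxcl10 was at 1025 and 1733 CPM (0.76) and Cxcl9 at 616 and 888 CPM (0.53), while Ccl2, which attracts monocytes, was at 70.1 and 37.6 CPM (-0.90) and Cxcl16 at 197 and 124 CPM (-0.67). The 16 genes had a median of 0.08 with none past 2-fold. Among members with no UMI of other-lineage genes the ratios of Vcam1 and Cxcl10 were 0.40 and 0.16. In vascular endothelium the ratio of Vcam1 was -0.63, with an opposite sign to that of sinusoidal cells; the difference between the classes was not tested.

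Zonation was read with UMI gates. At 2000 UMIs, a cell with at least 2 UMIs of Wnt2, Wnt9b and Rspo3 and none of Efnb2, Dll4, Ltbp4 and Adgrg6 was called pericentral, and the reverse periportal. Pericentral cells were 67 of 621 members (10.8%, 8.46 to 13.5) in the Mfap2+/+ and 60 of 980 (6.12%, 4.70 to 7.81) in the Mfap2-/- library. Periportal cells were 75 (12.1%) and 155 (15.8%). The log2 ratios of the shares were -0.82 and 0.39. They were -0.33 and 0.54 at 1000 UMIs and -0.87 and 0.63 without thinning. Since the gate genes differ between the libraries themselves, with Wnt2 at 127 and 91.5 CPM (-0.48) and Efnb2, a ligand of arterial endothelium, at 124 and 194 CPM (0.64), a shift in the kinds of cell and one in the level per cell cannot be told apart.

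Genes that the gates did not use separated the gated cells in the same direction in both libraries, with CPM taken over all UMIs of the gated cells. Cdh13 was at 750.5 and 1028 CPM in pericentral cells of the Mfap2+/+ and Mfap2-/- libraries and 49.8 and 58.5 CPM in periportal cells. Kit, a known pericentral marker, was at 269 and 227 against 93.1 and 88.2 CPM, and Thbd, thrombomodulin, at 498 and 254 against 110.4 and 65.5 CPM. Msr1, a scavenger receptor, had the reverse order, at 51.9 and 57.6 CPM in pericentral and 405 and 347 CPM in periportal cells. These pairs did not overlap in their counting intervals. Some of these genes were also high in vascular endothelium. There the gate gene Rspo3 was at 1510 and 1423 CPM, against 172 and 133 CPM in all members. Cdh13 was at 1074 and 1890 against 184 and 237 CPM, and Thbd at 433 and 200 against 189 and 110 CPM. Kit was lower there, at 70.1 and 78.7 CPM. Whether the pericentral gate holds vascular cells with little Vwf was not tested.

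The differences between libraries were present in both gates. Fabp4 was at 4885 and 2158 CPM in pericentral and at 4294 and 1273 CPM in periportal cells. Ifit2 was at 70.8 and 258 CPM in pericentral and at 167 and 604 CPM in periportal cells. Hgf was at 241 and 329.9 CPM in pericentral cells and at 344 and 944 CPM in periportal cells, so its gap was wider in the latter, and in pericentral cells the counting intervals overlapped. Of the pericentral list of 9 genes 8 were lower, with a median of -0.48, and of the 9 periportal genes 7 were lower, with a median of -0.21. Among members with no UMI of other-lineage genes the pericentral median was 0.40 and the ratios of Wnt2, Rspo3 and Thbd were 0.09, 0.24 and 0.53, so the direction of this list turned with that stricter selection. Gja4, a connexin gene of the periportal list, was at 139 and 58.4 CPM (-1.25).

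**Figure D5:**
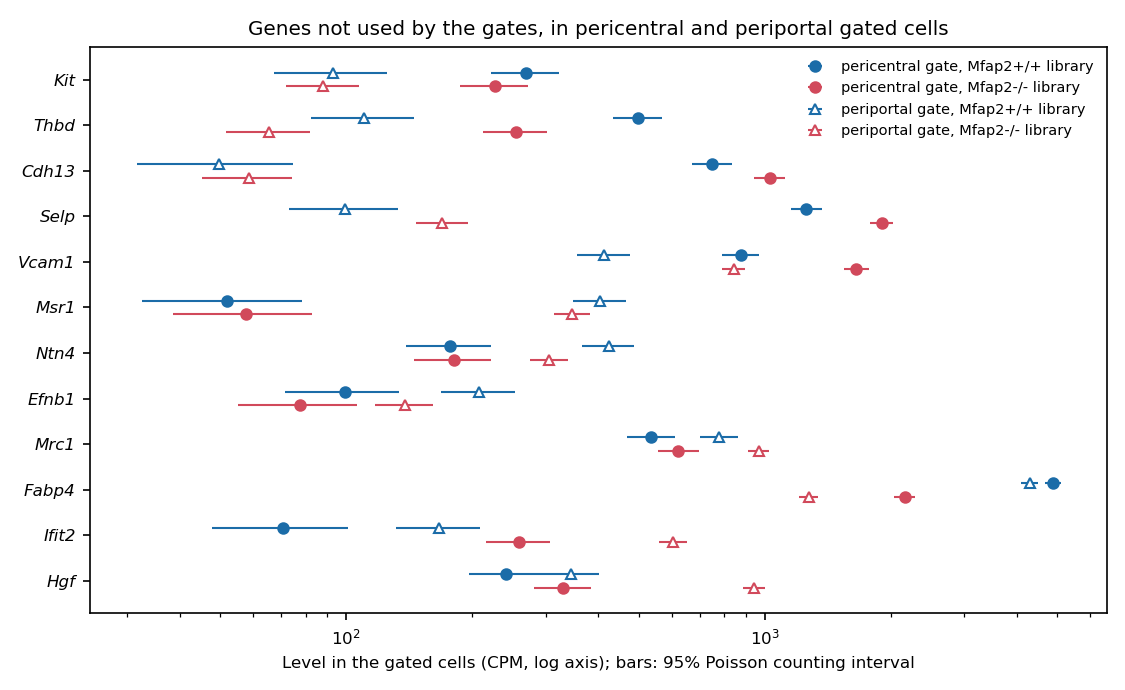
Level (x axis, CPM on a log axis) of genes the gates did not use (y axis) in gated pericentral (filled circles) and periportal (open triangles) cells of the Mfap2+/+ (blue) and Mfap2-/- (red) libraries, with 95% Poisson counting intervals. Kit, Thbd, Cdh13 and Selp lie to the right in pericentral cells and Msr1 in periportal cells, in both libraries.

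The rule for wide ratios also named genes outside the lists. It took the 12 highest and 12 lowest ratios among genes with a mean of at least 100 CPM that were at least as high in members as elsewhere. Beside the interferon and heat shock genes, the higher genes were AW011738 (48.8 and 181 CPM, 1.89), Gvin1, a large interferon-induced GTPase (61.6 and 173 CPM), the kinase gene Tnik (112 and 305 CPM) and Nol10, a nucleolar protein (98.4 and 267 CPM). Beside the lipid, glycolytic and ligand genes, the lower ones were Depp1 (215 and 83.7 CPM), Armcx4 (194 and 76 CPM), Itm2c (206 and 86.2 CPM), Cd9, a tetraspanin (407 and 193 CPM), Ctla2a, a protease inhibitor (721 and 364 CPM) and Imp3 (144 and 73.3 CPM). AW011738 lies at chr4:156203304-156205151 on the plus strand. Gvin1, Tnik, Nol10, Bag3, Herc6 and Ctla2a overlap another annotated gene on the same strand, so their counts are uncertain.

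Microfibril and elastic fibre genes, the family that Mfap2 belongs to, were sparse in these cells. Of 21 genes 9 passed the UMI minimum, 3 of them higher and 6 lower with none past 2-fold and a median of -0.20 (0.34 among members with no UMI of other-lineage genes). Mfap2, Mfap4, Mfap5 and Eln were among the 12 that did not pass. Fbn1, the fibrillin scaffold that the Mfap2 protein binds, was at 44.8 and 66.6 CPM (0.57, 0.32 to 0.83), Emilin1 at 93.4 and 69.6 CPM (-0.43) and Mmrn2, an endothelial relative of Emilin1, at 204 and 162 CPM (-0.34). Fbln2 was at 24.8 and 12.7 CPM (-0.97).

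Genes that set vascular tone and those of clotting lay on both sides of 0. Nos3, the endothelial nitric oxide synthase, was at 50.8 and 41.9 CPM (-0.28, -0.54 to -0.02). The vasoactive list of 12 had a median of -0.18 (-0.07 less the span class medians), with 8 lower and 1 of them 2-fold. Of all genes, 5975 of 10936 were lower. F8, clotting factor VIII, for which these cells are a main source, was at 610.5 and 674 CPM (0.14). Thbd, which turns thrombin into an anticoagulant, was at 189 and 109.9 CPM (-0.78) and F5 at 46.3 and 27.3 CPM (-0.76). In the coagulation list of 9, 4 were higher and 5 lower, none of them past 2-fold. Its median was -0.24 (-0.09 less the span class medians), and 0.17 among members with no UMI of other-lineage genes.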

How the data were processed

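The 2 libraries were deposited as gene by barcode matrices of raw UMI counts, with no cell annotation. The authors made these counts with Cell Ranger, version 7.0.1 per the file headers and 3.1.0 per the submitters' processing notes, which also name Seurat and the build mm10. Libraries were prepared with Chromium 3′ v3 chemistry per the labels. Every step below was computed from the counts with python 3.11.15, numpy 2.4.6, scipy 1.17.1 and pandas 2.3.3.

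Depth was 3993699 UMIs in Mfap2+/+ and 7642813 in Mfap2-/- members, so 3 counts correspond to 0.751 and 0.393 CPM. Intervals are exact Poisson for CPM, Clopper-Pearson for shares and exact conditional for ratios. PCR duplicates are collapsed by the UMIs. The members, lists and tests were chosen with earlier results of these data known. Genes named are list members, examples taken for width of ratio or known role, and the 12 highest and 12 lowest ratios by the rule given above. Rule, mitochondrial, ribosomal protein, haemoglobin and immunoglobulin genes were left out of that rule.

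Beside genes of the lists, vascular endothelium had at least 3 UMIs of Vwf, B cells at least 5 of Cd79a, Cd79b and Ms4a1, T cells at least 3 of Cd3d, Cd3e and Cd3g, and macrophages at least 20 of C1qa, C1qb and C1qc, with limits on the other lineages' genes. Thinning drew UMIs without replacement. Doublets were removed only in an alternative, by the highest Scrublet scores (scanpy 1.11.5). Calculations were tested on simulated data. Other alternatives were scaling by median of ratios, UMI minima, the count added, filters on barcodes and members, per-cell means and leaving out the richest cells. Gene spans are from GENCODE M21. No batch is given in the labels.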

Additional observations from a re-analysis of the deposited data

How the results depend on the processing

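With 1 library per genotype, these ranges cover processing and not animals, and no leaving out of a replicate was possible. No paired analysis was possible because each genotype has 1 library. Of 400 values for 40 named genes under the alternatives 392 kept their sign, and of 338 list medians 327 did, the span class values included, which were added after the data were seen. The sign held under every alternative run for 32 of the 40 genes but for only 16 of the 26 lists. The interferon median ran from 0.74 to 1.08. The exceptions lay mainly in the selection with no UMI of other-lineage genes, which left 75 and 68 members. There the log2 ratio of the share was -0.30, 83 genes were at least 2-fold higher and 62 lower, and list medians were -0.40 for scavenger, 0.40 for pericentral, -0.68 for periportal, 0.18 for angiocrine, 0.17 for coagulation, 1.22 for interferon-gamma, 1.14 for heat shock, -1.05 for glycolysis and -1.16 for cell cycle genes. Ratios turned for Bmp2 (-0.35), Edn1 (0.83), Wnt2 (0.093), Rspo3 (0.24), Thbd (0.53), Stab1 (0.029) and Gata4 (-0.075), and no counting interval is given for them. The ratio of Kit, -0.06 in all members, reached 0.57 under an alternative. C1qa alone had a UMI in 67.0% and 71.8% of members, and the depth of the cells left by this selection is not given. The cause was not tested. Requiring 10 sinusoidal UMIs gave 0.51 for the share. With a minimum of 20 UMIs 413 genes were higher and 380 lower, with none 1298 and 1809, and 140 were higher after thinning. Other values that moved were -0.28 for pericentral genes (thinned), -0.38 for periportal genes (per-cell means), -0.81 for glycolysis (Scrublet) and -0.10 for integrins (less the span class medians).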

Other observations

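Receptors for matrix and for TGF-beta differed little as lists. Of 11 integrin genes 7 were higher and 4 lower, with a median of 0.09, or -0.10 less the span class medians. Itga9, which pairs with the beta-1 chain, was at 354 CPM in Mfap2+/+ and 564 CPM in Mfap2-/- members (0.67), and Itgb3, the gene past 2-fold, at 77.4 and 35.3 CPM (-1.13, -1.37 to -0.89). The TGF-beta list of 17 had a median of 0.05 (-0.09 less the span class medians), with the receptor gene Tgfbr1 at 70.9 and 104 CPM (0.55) and Tgfbr2 at a ratio of 0.05. Of 12 endothelial to mesenchymal genes 7 were higher and 5 lower (median 0.34), while Acta2 and Cnn1, which mark contractile cells, did not reach the UMI minimum. Fn1, fibronectin, was at 39.1 and 16 CPM (-1.29), and Zeb1, a factor of this transition, at 577 and 847 CPM (0.55).

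Both ferritin subunits were lower, with Fth1 at 1959.6 and 1026 CPM (-0.93) and Ftl1 at 1740.2 and 1050.4 CPM (-0.73), although the 10 iron genes had a median of 0.12 (-0.35 among members with no UMI of other-lineage genes). Both have processed pseudogenes that can share their reads. Of 15 cell cycle genes 12 were higher (median 0.26), but only 5 had intervals above 0 and 1 had one below. The highest ratio was that of the proliferation marker Mki67, at 11.8 and 37.3 CPM (1.64, 1.21 to 2.14). It was at 53.3 and 94.9 CPM in all other barcodes. Birc5 had a ratio of -0.08 (-0.59 to 0.48) and Tyms of -0.68 (-1.21 to -0.14). Among the 75 and 68 members with no UMI of other-lineage genes the cell cycle median was -1.16.

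A few genes outside the naming rule had wide ratios and were chosen after their values were seen. Fgf23, a phosphate hormone, had 289 UMIs in Mfap2+/+ and 83 in Mfap2-/- members (72.4 and 10.9 CPM), against 8.90 and 5.01 CPM in all other barcodes. Marco, a macrophage receptor, had 287 and 72 UMIs, and was higher in other barcodes, at 334 and 40.6 CPM. Ighg2b, an immunoglobulin gene, had 0 and 179 UMIs in members, at 1.32 and 189 CPM in other barcodes.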
